A study of Danio rerio with 2 samples.

Results

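The 48 *hox* genes in the matrices were examined by paralog number in single cells of the zebrafish trunk, sorted on an *olig2* reporter. Every gene whose symbol joined *hox*, a cluster letter from a to d and a number was a member, which gave 48 of the 27771 identifiers in the matrices. All 48 were detected in both libraries and had at least 20 UMIs (unique molecular identifiers, each counting 1 captured RNA molecule), and 46 had at least 200, the exceptions being *hoxa1a* with 174 and *hoxb1a* with 32. The members covered 13 paralog numbers in 7 chromosomal sets, of which *hoxba* and *hoxca* held 11 members each, *hoxda* 7, *hoxaa* 6, *hoxab* 5, and *hoxbb* and *hoxcb* 4 each.

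Hox genes encode homeodomain transcription factors that give cells their position along the head to tail axis. Within a chromosomal set they lie in the order of their numbers, and low numbers are switched on earlier and further forward than high numbers, so that cells of the tail end carry the highest ones. In the spinal cord they set apart the columns and pools of motor neurons, largely as shown in mouse and chick, and they bind DNA together with the Pbx and Meis cofactors. Teleost fish carry duplicated sets, and the letter after the number marks the copy.

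The cells came from *Tg(olig2:dsRed)* embryos, a line outcrossed to wild type, at 28 and 60 hours post fertilization (hpf). Heads had been cut off in front of the border between hindbrain and spinal cord, so that some hindbrain may remain, the pooled trunks were dissociated, and fluorescent cells were sorted and captured with the 10x 3′ V3 chemistry. Each stage is 1 library, so stage and library cannot be told apart, no test was possible and no p-value is given. The reporter marks the pMN domain, the ventral progenitors of motor neurons and oligodendrocytes, and dsRed protein outlasts the *olig2* RNA, so the sort also held descendants and other cells. *olig2* stood at 40.8 UMIs per 10000 in pMN progenitor-like cells at 28 hpf and 47.6 in cells like oligodendrocyte precursors and oligodendrocytes (OPC/OL-like), against 0.842 in motor neuron-like cells at 60 hpf.

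After removal of cells under 1000 genes, 8390 cells at 28 hpf (median 7375.5 UMIs) and 5517 at 60 hpf (median 6809 UMIs) remained, with 16 barcodes in common. They formed 29 clusters, from which the *hox* genes had been left out, and 24 were named from marker genes as rebuilt classes ending in "-like". The motor neuron-like class was held by different clusters at the stages, clusters 7 and 20 at 28 hpf (671 and 53 of 725 cells) and clusters 4, 13 and 20 at 60 hpf (894, 384 and 142 of 1434 cells). Cluster 2, with 1208 cells of 60 hpf and led by *bmp16* and *esrrga*, stayed unnamed although its best marker list was that of motor neurons. A level is given as UMIs per 10000 UMIs of the class with its exact Poisson 95% interval, which covers counting error only. The UMIs tag 3′ ends and are not scaled per length, so levels were compared between classes and not between genes.

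The *hox* genes together gave 29.8 UMIs per 10000 at 28 hpf (275871 UMIs) and 32.9 at 60 hpf (207913 UMIs). Among neural classes at 28 hpf the summed level was 40.7 (40.4 to 41.1) in pMN progenitor-like cells, 33.3 in cycling-like cells, 41.6 in neuronal precursor-like cells, 43.6 (43.0 to 44.1) in motor neuron-like cells and 44.2 in cells like V2b and Kolmer-Agduhr interneurons (V2b/KA interneuron-like). At 60 hpf it was 47.2 (45.4 to 49.1) in 68 pMN progenitor-like cells, 52.0 (51.5 to 52.5) in motor neuron-like cells and 40.8 in V2b/KA interneuron-like cells. The highest sum was that of V3 interneuron-like cells at 60 hpf, 85.2 (83.7 to 86.7), against 52.9 (51.1 to 54.8) at 28 hpf. Glia of 60 hpf stood lower than these classes. Radial glia-like cells had 32.5 (31.9 to 33.0) and the OPC/OL-like class had 16.7 (16.3 to 17.2). Single clusters overlapped, with radial glia-like cluster 11 at 35.9 and motor neuron-like cluster 13 at 33.7. Floor plate-like cells had 35.7 (35.3 to 36.2) at 28 hpf and 25.2 (23.9 to 26.5) at 60 hpf. Erythroid-like cells, used here to gauge the background of free RNA, gave 1.18 and 1.39. Whether they express *hox* genes themselves was not tested. Because those cells were deep, at medians of 33266 and 31210.5 UMIs, and free RNA adds UMIs to a droplet and not a share of them, the background is better read per cell. Erythroid-like cells of 60 hpf held a mean of 4.35 and a median of 1 *hox* UMIs, OPC/OL-like cells 13.9 and 8, and motor neuron-like cells 27.4 and 23. How much of the lower OPC/OL-like level was free RNA was not tested.

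**Figure D1:**
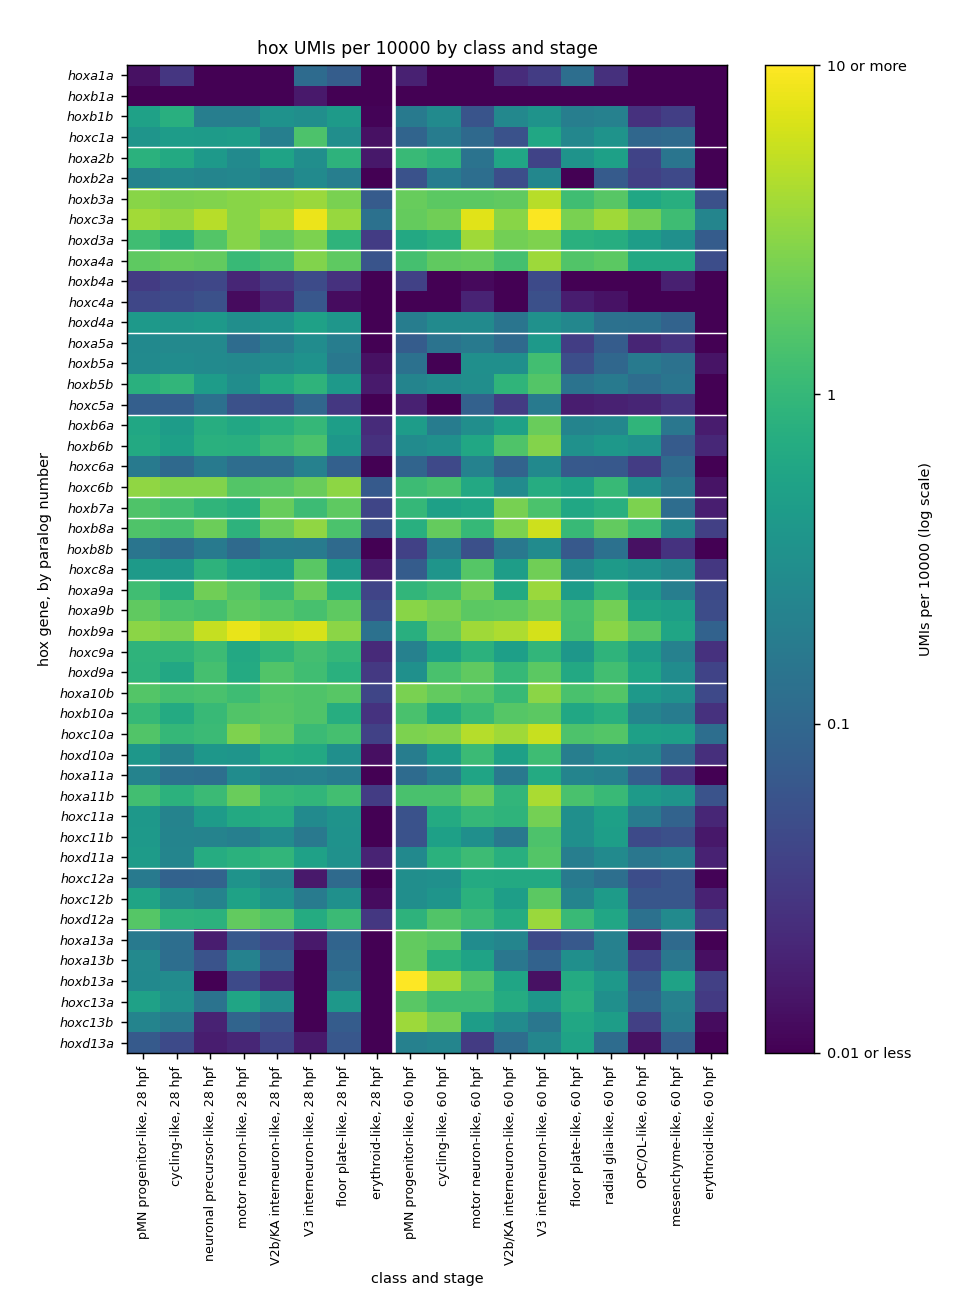
Level of each of the 48 *hox* genes (rows, ordered by paralog number, white lines between numbers) in each class at 28 hpf (left) and 60 hpf (right), as UMIs per 10000 on a log color scale held between 0.01 and 10. Erythroid-like cells have the lowest level of most genes, and the bottom rows of the 60 hpf block show 5 of the 6 number 13 genes at their highest in pMN progenitor-like cells, with *hoxd13a* highest in floor plate-like cells (0.557).

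Numbers 3 and 9 dominated the counts in both libraries. Number 3 gave 22.5% of all *hox* UMIs, 55.1% of them from *hoxc3a*, and number 9 gave 22.5%, 44.5% of them from *hoxb9a*. *hoxc3a* alone was 12.4% of all *hox* UMIs and was found in 76.8% of the kept cells. By contrast numbers 1, 2, 5, 7 and 13 gave the smallest shares, at 1.42%, 1.46%, 2.60%, 2.87% and 3.02%. A number held from 1 member (number 7) to 6 (number 13), so these are shares of counts and not levels compared between genes. These shares depend on how the reads were assigned. In the RefSeq models of the GRCz12tu assembly *hoxc3a* spans *hoxc4a*, *hoxc5a*, *hoxc6a*, *hoxc8a* and *hoxc9a*, *hoxb3a* spans *hoxb4a*, *hoxb5a* and *hoxb6a*, *hoxd3a* spans *hoxd4a*, and *hoxb1b* spans *hoxb5b* and *hoxb6b*, and the annotation used for counting is not given in the sources used here. In those models *hoxa3a*, a symbol that the matrices lack, spans *hoxa4a* and *hoxa5a*. The levels of these genes are therefore uncertain where reads could be split between them.

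**Figure D2:**
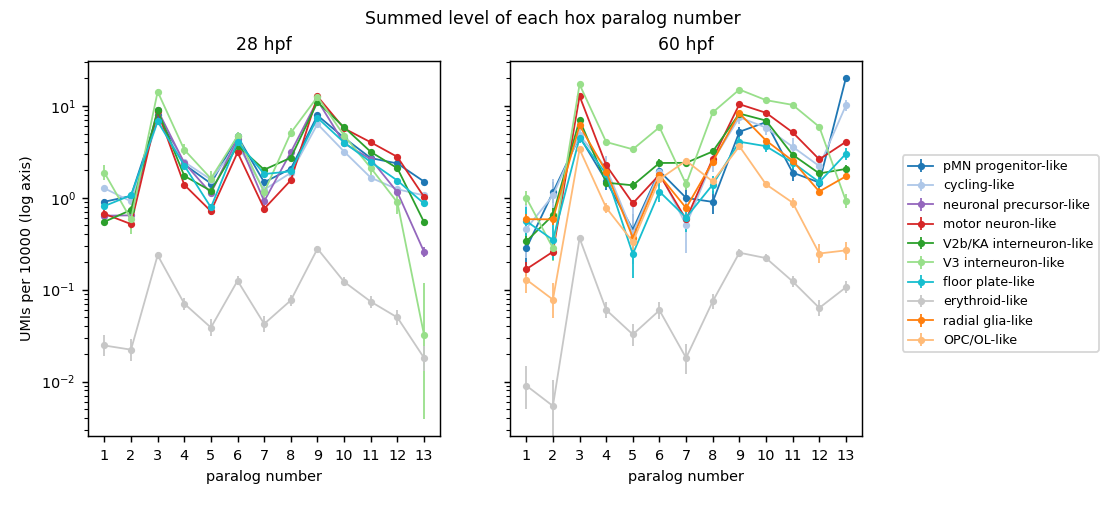
Summed level of each paralog number (UMIs per 10000, log axis) in the classes at 28 hpf (left) and 60 hpf (right), with exact Poisson 95% intervals. Numbers 3 and 9 stand out in most classes, and at number 13 pMN progenitor-like cells of 60 hpf lie highest (20.1) and OPC/OL-like cells (0.267) lowest among the neural classes of that stage.

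The make-up of the *hox* RNA also differed between classes, measured as the share of *hox* UMIs that came from numbers 9 to 13. This share was 46.4% in pMN progenitor-like cells, 40.4% in cycling-like cells, 46.6% in neuronal precursor-like cells, 60.0% in motor neuron-like cells and 38.4% in V3 interneuron-like cells at 28 hpf. At 60 hpf it was 74.8% in pMN progenitor-like cells, 58.9% in motor neuron-like cells, 53.9% in V2b/KA interneuron-like cells, 51.3% in V3 interneuron-like cells, and 55.1% in radial glia-like cells. The OPC/OL-like class had only 38.4% (37.1 to 39.8) there and more in the middle band, with 35.5% from numbers 5 to 8, against 9.10% in pMN progenitor-like, 11.3% in motor neuron-like, 16.6% in radial glia-like and 22.9% in V2b/KA interneuron-like cells of 60 hpf.

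OPC/OL-like cells were the named neural class with the least *hox* RNA, and the difference ran over most numbers. The unnamed cluster 26, with 73 cells of 60 hpf, had a lower summed level of 13.9. A member was called higher or lower when its level differed at least 2-fold with 1 UMI added to each group, and had at least 20 UMIs over both groups, a rule of size that was applied to all genes alike to give a background. The printed ratios are without the added UMI. Over motor neuron-like cells of the same library 37 of 44 members were lower, where 26.7% of all genes were lower, and 2 were higher, where 21.6% of all genes were. The median log2 ratio was -1.91 over the members and -0.07 over all genes tested. Over radial glia-like cells 28 of 43 members were lower against 16.2% of all genes, and 2 were higher against 22.2%, with medians of -1.44 and 0.32. The summed *hox* ratio was -1.63 (-1.68 to -1.59) on the log2 scale over motor neuron-like cells and -0.96 (-1.0 to -0.91) over radial glia-like cells.

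The gap was unequal along the numbers. On the log2 scale OPC/OL-like over motor neuron-like cells, numbers 1 to 5 stood between -1.92 (number 3) and -0.38 (number 1), number 6 at -0.17, number 7 at 2.12 and number 8 at -0.83. Number 9 stood at -1.52, number 10 at -2.59, number 11 at -2.54, number 12 at -3.40 and number 13 at -3.92. Of the single members *hoxc10a*, whose paralogs pattern the lumbar cord in mouse, was at 0.501 in OPC/OL-like and 4.60 in motor neuron-like cells, and *hoxd3a* at 0.471 and 3.73. *hoxb13a* was at 0.0711 against 1.58, a log2 ratio of -4.47 (-5.17 to -3.85), which was -2.35 when cluster 20 was left out of the motor neuron-like class. Without that cluster number 13 stood at -2.70, between number 11 at -2.57 and number 12 at -3.28, and number 10 at -2.49.

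Both members that were higher in OPC/OL-like cells lie in the middle of the *hoxba* set. *hoxb7a*, the only number 7 gene, was at 2.53 UMIs per 10000 in OPC/OL-like cells, 0.580 in motor neuron-like cells and 0.773 in radial glia-like cells, and the log2 ratios were 2.12 (1.95 to 2.30) and 1.71 (1.52 to 1.90). *hoxb6a* was at 0.924, 0.305 and 0.244, with log2 ratios of 1.60 (1.34 to 1.86) and 1.92 (1.59 to 2.27). *hoxb8a*, their neighbour in the set, was at 1.15 in OPC/OL-like and 1.01 in motor neuron-like cells and met the rule in neither comparison, although its log2 ratio over motor neuron-like cells was -1.99 at the finer clustering (Louvain resolution 2). In cells thinned to 2000 UMIs, 40.6% (35.5 to 46.0) of OPC/OL-like cells held a *hoxb7a* UMI, against 9.92% (8.37 to 11.6) of motor neuron-like cells, and 12.7% of radial glia-like cells. Without thinning the shares were 75.3% in OPC/OL-like cells (median 7052 UMIs) and 20.4% in motor neuron-like cells (median 4269.5). The share in erythroid-like cells (median 31210.5), taken as the background, was 3.77%. *hoxb7a* was not confined to the OPC/OL-like class, since V2b/KA interneuron-like cells had 2.02 at 28 hpf and 2.40 at 60 hpf, and the *tac3a* cluster among them, cluster 19, had 2.9. Floor plate-like clusters 9 and 21 had 1.77 and 1.94 at 28 hpf, and cluster 21 had 0.611 at 60 hpf. The unnamed cluster 26 had 1.68 at 60 hpf.

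**Figure D3:**
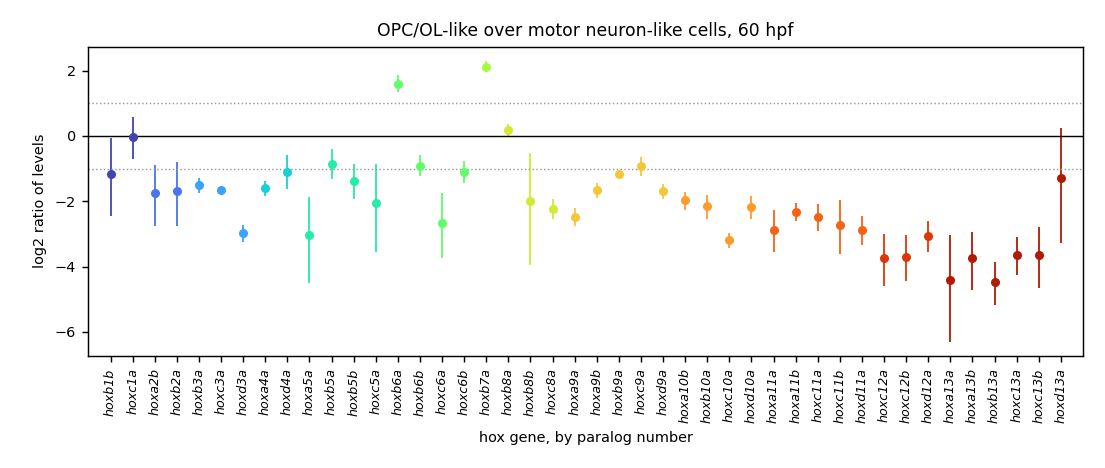
Log2 ratio of the level in OPC/OL-like over motor neuron-like cells at 60 hpf for the members with at least 20 UMIs, ordered by paralog number, with exact 95% intervals conditional on the total and dotted lines at the 2-fold rule. *hoxb7a* (2.12) and *hoxb6a* (1.60) lie above the upper line and 37 members lie below the lower one.

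Between the stages, motor neuron-like cells differed most in numbers 1, 2 and 13. Of 46 members 8 were higher at 60 hpf, where 16.6% of all genes were higher, and 6 were lower, where 11.1% of all genes were, and the median log2 ratio was 0.47 for the members and 0.25 for all genes. The members' shares, 17.4% and 13%, were thus close to the background. Number 1 was at 0.668 at 28 hpf and 0.167 at 60 hpf and number 2 at 0.517 and 0.258, with log2 ratios of -2.0 (-2.30 to -1.71) and -1.0 (-1.27 to -0.73). *hoxc1a* went with them, at 0.467 and 0.105.

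Within number 9 and its neighbours the members parted. *hoxb9a*, a member of the paralog group that marks the thoracic spinal cord in mouse, was at 7.95 (7.72 to 8.19) at 28 hpf and 3.77 (3.63 to 3.91) at 60 hpf, a log2 ratio of -1.08, while *hoxd9a* was at 0.691 and 1.86, *hoxd10a* at 0.365 and 1.12 and *hoxc8a* at 0.580 and 1.60. *hoxc3a* was at 2.92 and 7.31, a log2 ratio of 1.32 (1.24 to 1.40). The *b* copy *hoxc6b* was at 1.59 and 0.654, while *hoxc6a* was at 0.118 and 0.215. At 60 hpf the higher levels lay mostly in cluster 4, with *hoxd9a* at 2.76, *hoxd10a* at 1.66, *hoxc8a* at 2.38 and *hoxc3a* at 10.1. In cluster 13 they were at 0.601, 0.332, 0.469 and 3.604, and only *hoxc3a* was above its 28 hpf class level. *hoxb9a* was at 3.99 in cluster 4 and 3.94 in cluster 13. The part of cluster make-up in these stage differences was not tested.

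**Figure D4:**
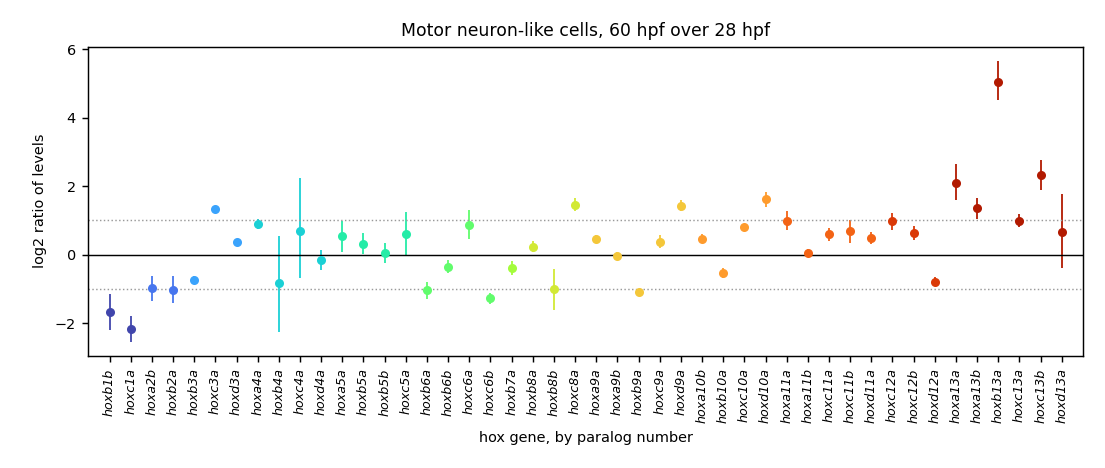
Log2 ratio of the level at 60 hpf over 28 hpf in motor neuron-like cells for the 46 members with at least 20 UMIs, ordered by paralog number, with exact 95% intervals and dotted lines at the 2-fold rule. *hoxb13a* (5.06) lies far above the others and *hoxc1a* (-2.16) lowest, and no interval covers the difference between libraries.

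Number 13 was at 1.02 and 4.06 UMIs per 10000, a log2 ratio of 1.99 (1.86 to 2.12), and at 60 hpf most of it lay in 1 cluster. *hoxb13a* was at 0.0474 at 28 hpf and 1.58 at 60 hpf (log2 ratio 5.06, 4.51 to 5.66), *hoxc13b* at 0.0931 and 0.464 and *hoxa13a* at 0.0668 and 0.287. At 60 hpf the 142 cells of cluster 20, led by *galn*, *hoxb13a* and *calb1*, had 27.6 (26.4 to 28.9) UMIs per 10000 of number 13, with *hoxb13a* at 13.9, *hoxc13a* at 6.22 and *hoxa13b* at 3.05, against 1.51 in cluster 4 and 2.25 in cluster 13. *hoxc10a* was also highest there, at 11.2. The 53 cells of cluster 20 at 28 hpf had 0.0925 of number 13, from 3 UMIs. With cluster 20 left out, the log2 stage ratio of number 13 was 0.69 in place of 1.99, and with cluster 2 counted as motor neuron-like it was 0.80.

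Cluster 4, led by *gfra1a* and *nefmb*, and cluster 13, led by *col19a1*, differed as well. The summed level was 59.7 in cluster 4 and 33.7 in cluster 13, number 3 was at 16.7 and 7.27, number 8 at 3.92 and 0.853 and number 9 at 12.7 and 7.66. Number 12 was nearly the same, at 2.34 and 2.53. Cluster 2 had a summed level of 54.2, and *hoxc3a* stood there at 10.8.

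pMN progenitor-like cells at 60 hpf formed a small group of 68 cells dominated by number 13. The level of number 13 was 20.1 (19.0 to 21.4) UMIs per 10000, against 1.5 in 1507 cells at 28 hpf, a log2 ratio of 3.75 (3.63 to 3.86). *hoxb13a* was at 10.8 against 0.263, *hoxc13b* at 3.66 against 0.224, *hoxa13b* at 1.95 against 0.261, *hoxa13a* at 1.88 against 0.167 and *hoxc13a* at 1.69 against 0.514. *hoxd13a* was at 0.206. All 6 number 13 members were higher at 60 hpf and no other member was, so that 6 of 46 were higher, where 22.3% of all genes were, and 17 were lower, where 7.18% of all genes were. Lower members included *hoxb9a*, at 3.04 and 0.788, *hoxc8a*, at 0.427 and 0.0751, *hoxc9a*, at 0.90 and 0.206, and *hoxb5b*, at 0.805 and 0.225. The 60 hpf level of *hoxc8a* lay near the 3 UMIs that a count of 0 allows. The tail bud marker genes, which mark the growth zone at the end of the tail, summed to 2.62 in pMN progenitor-like cells at 28 hpf and 0.92 at 60 hpf. Of its 8 genes 0 lacked a UMI at 28 hpf and 3 at 60 hpf, where the class held 532737 UMIs against 10304992, so fewer genes could be found. The part of tail bud cells in the number 13 level was not tested. Cycling-like cells at 60 hpf, only 26, had 10.1 of number 13 as well, against 1.06 at 28 hpf. This result depended on how the small class was formed. With predicted doublets removed before clustering, the log2 ratio of number 13 was 0.54 in place of 3.75, and that of *hoxb13a* was 2.19. Those of *hoxa13b* and *hoxc13a* turned to -1.11 and -0.29. With that setting 2 members were higher and 8 lower, and the shares of all genes were not counted. No 60 hpf class of this name was formed with at least 500 genes per cell, at resolution 2 or with each library clustered alone.

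V2b/KA interneuron-like cells include the Kolmer-Agduhr neurons, which contact the cerebrospinal fluid, and their summed level had a log2 ratio of -0.11 between the stages. Different clusters held the class, clusters 6, 10 and 18 at 28 hpf (747, 586 and 205 of 1541 cells) and clusters 19, 18 and 10 at 60 hpf (233, 75 and 33 of 348 cells). Of 47 members 7 were higher at 60 hpf, where 24.9% of all genes were, and 7 were lower, where 14.2% of all genes were. *hoxc6b* was at 1.68 and 0.282, a log2 ratio of -2.57 (-2.97 to -2.2), *hoxd12a* at 1.54 and 0.694 and *hoxc12a* at 0.218 and 0.661. Number 13 was at 0.541 and 2.06, the largest ratio among the numbers, 1.92 (1.75 to 2.09) on the log2 scale. Both clusters with over 20 cells at each stage showed the same directions. In cluster 18 number 13 was at 0.448 and 2.46 and *hoxc6b* at 0.866 and 0.122. In cluster 10 number 13 was at 0.520 and 4.49 and *hoxc6b* at 2.15 and 0.602. Cluster 19, with 233 of the 348 cells of 60 hpf, had number 13 at 0.916, below the class value of 2.06, and *hoxc6b* at 0.225. Within the class at 60 hpf, cluster 18 with *urp1* and *urp2* had *hoxb8a* at 0.90 and *hoxc10a* at 5.08, and cluster 19 with *tac3a* and *sst1.1* had 3.50 and 3.45.

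V3 interneuron-like cells, the glutamatergic *uncx*-positive neurons, were cluster 16 at both stages, and their stage difference lay mostly in high numbers. Of 41 members 14 were higher at 60 hpf against 22.3% of all genes and 3 were lower against 7.90%, and the median log2 ratio was 0.76 for the members and 0.37 for all genes. Of the 14, 12 were of numbers 10 to 13, and *hoxa10b*, at 1.5 and 3.02, was just under the rule. *hoxc10a* was at 1.1 and 5.59, *hoxc11a* at 0.275 and 2.37, *hoxc11b* at 0.162 and 1.44, *hoxa11b* at 0.953 and 4.18 and *hoxd12a* at 0.695 and 3.51. Outside them *hoxb5a* was at 0.339 and 1.22 and *hoxb6a* at 1.0 and 2.07, and *hoxc6b* was lower, at 2.05 and 0.715. The 28 hpf group held only 71 cells, in which *hoxa13b*, *hoxb13a*, *hoxc13a* and *hoxc13b* had 0 UMIs, which allows up to 0.0485 UMIs per 10000 each, taken as 3 UMIs in the group. The log2 ratio of number 13 was 4.84, but 0.31 with each library clustered alone, while that of *hoxc11a* was 3.11 and 3.36.

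Between pMN progenitor-like cells and the neuronal classes at 28 hpf most members did not meet the rule. In motor neuron-like cells 3 of 46 members were higher, against 32.1% of all genes, and 11 were lower, against 24.1%. In V2b/KA interneuron-like cells 1 of 47 was higher, *hoxd11a*, against 23.9% of all genes, and 5 were lower, against 10.1%. In V3 interneuron-like cells 8 of 47 were higher, against 26.0%, and 11 were lower, against 16.4%. *hoxb9a* was at 7.95 in motor neuron-like, 5.82 in V2b/KA interneuron-like and 6.61 in V3 interneuron-like cells against 3.04 in pMN progenitor-like cells, with log2 ratios of 1.39, 0.94 and 1.12. *hoxd3a* was at 2.87, 1.89 and 2.58 against 1.2. Members lower in motor neuron-like cells included *hoxa2b*, at 0.272 against 0.827, *hoxb1b*, at 0.193 against 0.519, and *hoxb5b*, at 0.293 against 0.805, while *hoxc1a*, at 0.467 against 0.368, did not meet the rule. V3 interneuron-like cells had *hoxc8a* at 1.70 against 0.427 and *hoxc1a* at 1.44 against 0.368. No order was read for number 13 at 28 hpf. Its log2 ratio over pMN progenitor-like cells was -0.55 in motor neuron-like, -1.46 in V2b/KA interneuron-like and -5.54 in V3 interneuron-like cells, and 2.81, 2.19 and 2.56 with each library clustered alone. The counts with that setting were 16 higher and 4 lower in motor neuron-like, 20 and 3 in V2b/KA interneuron-like and 20 and 1 in V3 interneuron-like cells. The shares of all genes were not counted with it.

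At 60 hpf the neuronal classes were compared with the 68 pMN progenitor-like cells. The members' shares higher and lower were 38.6% and 15.9% in motor neuron-like and 39.0% and 17.1% in V2b/KA interneuron-like cells, near the background. In V3 interneuron-like cells they were 68.2% and 13.6%, and only the share of higher members lay well above it. In motor neuron-like cells 17 of 44 members were higher, against 33.6% of all genes, and 7 were lower, against 17.8%. In V2b/KA interneuron-like cells 16 of 41 were higher, against 36.3%, and 7 were lower, against 15.4%. In V3 interneuron-like cells 30 of 44 were higher, against 36.3%, and 6 were lower, against 14.4%, with medians of 1.95 over the members and 0.52 over all genes. *hoxc8a* was at 1.60 in motor neuron-like and 2.22 in V3 interneuron-like cells against 0.0751, *hoxc11a* at 0.988 and 2.37 against 0.0563 and *hoxd3a* at 3.73 and 2.66 against 0.638. In those 68 cells *hoxc8a* and *hoxc11a* lay near the 3 UMIs that a count of 0 allows, so their differences are loosely measured. Number 13 was lower in all 3 classes, with log2 ratios of -2.31 in motor neuron-like, -3.29 in V2b/KA interneuron-like and -4.45 in V3 interneuron-like cells. With predicted doublets removed these ratios were 1.1, -0.22 and -1.24. The comparisons share the 68 pMN progenitor-like cells, so their directions are not independent of each other.

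Radial glia-like cells of 60 hpf fell into clusters with different *hox* RNA. Cluster 11, led by *gfap* among others, had a summed level of 35.9 in 429 cells, and cluster 23, led by *slc1a2b* and *fabp7a*, had 20.2 in 110 cells. Number 13 was at 2.04 (1.89 to 2.2) and 0.520 (0.384 to 0.690), number 9 at 9.56 and 3.75 and number 2 at 0.714 and 0.108. Number 1 ran the other way, at 0.390 and 1.28.

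Single cells carried several members at once. With every cell thinned to 2000 UMIs, the median was 7 members in V2b/KA interneuron-like cells at 28 hpf, 9 in V3 interneuron-like cells at 60 hpf, 7 in motor neuron-like cells at 60 hpf, 5 in radial glia-like cells and 2 in OPC/OL-like cells. A *hox* UMI was lacking in 12.8% of OPC/OL-like cells and 0.969% of motor neuron-like cells at 60 hpf, and without thinning in 1.97%, 0.349% and, for erythroid-like cells of that stage, 39.8%. The highest number found in a cell was 13 in 75% of pMN progenitor-like cells at 60 hpf, 21.0% of motor neuron-like cells, 14.6% of radial glia-like cells and 2.56% of OPC/OL-like cells.

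High numbers were mostly found in cells that also held number 10. Of the 282 motor neuron-like cells at 60 hpf with a number 13 UMI, 92.6% (88.8 to 95.3) also had a number 10 UMI, against 56.9% of those without number 13, and 66.3% had number 12, against 18.5%. In the opposite direction 30.2% of the cells with number 10 had number 13. In 187 pMN progenitor-like cells with number 13 at 28 hpf the share with number 10 was 88.8%, against 37.5% without, in 118 V2b/KA interneuron-like cells 81.4%, against 61.3%, and in 22 V3 interneuron-like cells at 60 hpf 95.5%, against 55.4%. Of the 65 V3 interneuron-like cells with number 12, 64 had number 10 and 62 had number 11. The background share of each number was read without thinning, since the deep erythroid-like cells lose more UMIs to it. At 60 hpf 19.6% of erythroid-like and 74.7% of motor neuron-like cells then held number 10, and 4.91% and 25.6% held number 13. High numbers were also found together in the background cells. Among thinned erythroid-like cells of 60 hpf, 21 had number 10. Of these 19.0% (5.45 to 41.9) had number 13, against 0.393% of those without number 10. Numbers 11 and 12 were found in 42.9% and 23.8%, against 1.38% and 0.589%. The part of free RNA in the pairing seen in the other classes was not tested.

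Low and middle numbers gave other shares. Number 10 was found in 27.3% (16.1 to 41.0) of the V3 interneuron-like cells with number 5 at 60 hpf and 69.8% of those without, and in motor neuron-like cells in 40.9% and 67.0%. Number 8 was found in 11.3% of the motor neuron-like cells with number 13 and 29.5% of those without. Number 3 was found in 74.5% and 85.6%. These shares were not adjusted for the amount of *hox* RNA in each cell, and its part in them was not tested.

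**Figure D5:**
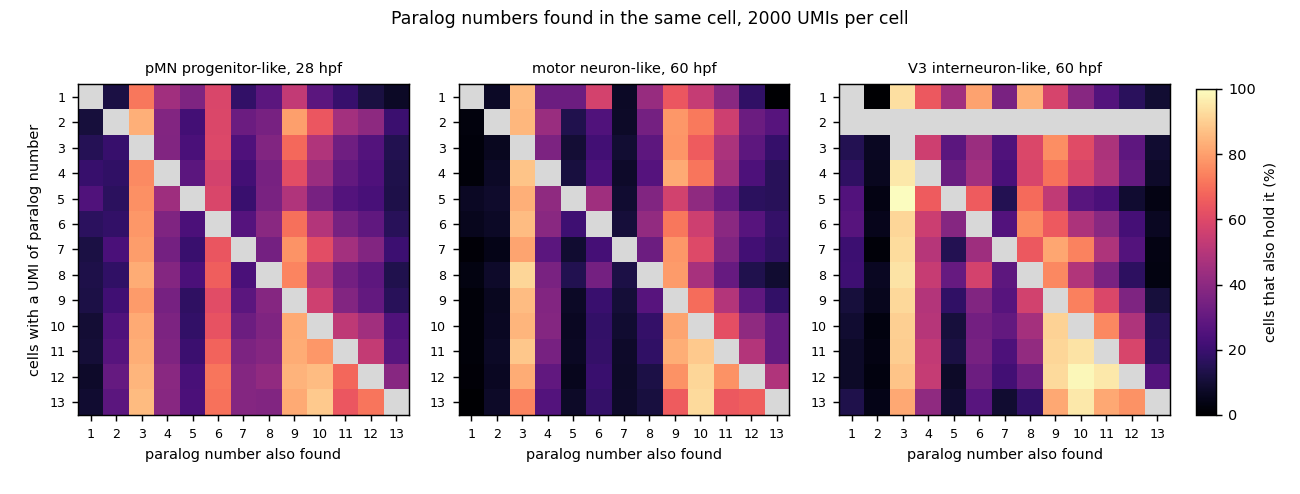
Share of cells (%) with a UMI of the paralog number on the x axis among cells with a UMI of the number on the y axis, with each cell thinned to 2000 UMIs, in pMN progenitor-like cells at 28 hpf, motor neuron-like cells at 60 hpf and V3 interneuron-like cells at 60 hpf. Gray marks the diagonal and rows with fewer than 20 cells, and the lower right corner shows the numbers 10 to 13 found together, with 92.6% for number 10 among motor neuron-like cells with number 13.

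The share of UMIs from the *a* copy of a gene differed across classes. Of 11 pairs, 10 had at least 200 UMIs in each copy. The share from the *a* copy of *hoxb8* was always high, from 84.9% to 98.8%, and that of *hoxa11* always low, from 7.14% to 22.0%. Other pairs varied more. *hoxb6a* gave 74.0% of the *hoxb6* UMIs in OPC/OL-like cells and 25.7% in V2b/KA interneuron-like cells at 60 hpf. *hoxa9a* gave 63.3% in neuronal precursor-like cells and 24.0% in pMN progenitor-like cells at 60 hpf, and *hoxc13a* gave 86.2% in motor neuron-like cells at 28 hpf and 31.6% in pMN progenitor-like cells at 60 hpf. Both low shares come from a class of only 68 cells, which was not formed under some of the alternative settings. With predicted doublets removed, the stage ratio of *hoxc13a* in that class changed sign, so these low shares are uncertain. *hoxc11a* gave 85.0% in V2b/KA interneuron-like cells at 60 hpf and 49.6% in pMN progenitor-like cells at 28 hpf. *hoxc6a* gave 5.02% in pMN progenitor-like cells and 6.91% in motor neuron-like cells at 28 hpf. In motor neuron-like cells at 60 hpf it gave 24.7%, and its share was at most 41.4% in any class measured. These are shares of counts, compared between classes and not between copies. In the RefSeq models *hoxc6a* lies within the span of *hoxc3a*, *hoxb6a* within that of *hoxb3a* and *hoxb6b* within that of *hoxb1b*. Reads of these copies could thus be split.

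Of the 13 measured genes of the TALE class, the Meis, Pbx and Pknox partners of Hox proteins, 7 were lower in OPC/OL-like than in motor neuron-like cells, where 26.7% of all genes were lower, and 0 were higher, where 21.6% were. The median log2 ratio was -1.58, against -0.07 over all genes. *meis1b* was at 2.23 in OPC/OL-like and 7.85 in motor neuron-like cells, *pbx3b* at 1.24 and 7.0, *pbx1a* at 0.945 and 2.84 and *pbx1b* at 0.213 and 1.65. Over radial glia-like cells 4 of 13 were lower, against 16.2% of all genes, and 2 higher, *pbx1b* and *pknox2*, against 22.2%. In motor neuron-like cells over pMN progenitor-like cells 4 were higher and 1 lower at 28 hpf, against 32.1% and 24.1% of all genes, and 7 higher and 1 lower at 60 hpf, against 33.6% and 17.8%. Between the stages in motor neuron-like cells 16.6% of all genes were higher at 60 hpf and 11.1% lower. There *pbx3b* was at 1.28 and 7.0, and *meis3*, the 1 lower gene of the list, at 2.15 and 0.618. No stage result for the list was read from these genes.

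Of the genes upstream of *hox*, the Cdx, retinoic acid and hindbrain regulators, 10 of 13 had enough UMIs in motor neuron-like over pMN progenitor-like cells at 28 hpf, and 6 were lower, against 24.1% of all genes, *cdx4* among them at 0.480 against 2.38, and 1 higher, *mafba*, against 32.1%. In OPC/OL-like over motor neuron-like cells, where 26.7% of all genes were lower and 21.6% higher, 5 of 7 were lower and 1 higher, *egr2b*. Of the genes of the Polycomb and trithorax complexes, which hold *hox* genes silent or active, 2 of 12 were higher there, *eed* and *suz12a*, and 1 lower, *cbx8b*. Of 10 motor column genes 6 were lower there and 3 higher, and *foxp1b*, whose mouse counterpart acts with Hox proteins in limb motor neurons, was at 0.298 against 1.78. Of the genes that lie beside the *hox* sets 3 of 6 were lower, *evx1*, *mtx2* and *skap2*, and 2 higher, *lnpa* and *snx11*.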

How the data were processed

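The deposited matrices hold raw UMI counts per gene and cell, made by the authors with Cell Ranger from 10x 3′ V3 libraries on GRCz11; the annotation is not given in the sources used here. Cells under 1000 genes were left out. Clusters were drawn on log values of counts scaled to 10000, from 50 components of 3977 variable genes without the *hox* genes (Louvain, resolution 1, 15 neighbours) with scanpy 1.11.5 in Python 3.11.15. A cluster was named from a marker list whose median log2 fold was at least 1, with 3 or more markers found. A name was refused when another list had more of the cluster's 10 top genes. It was also refused for clusters of low depth with no marker of their own list among those genes. Levels are summed counts per 10000 with exact Poisson intervals, shares have exact binomial ones, and ratios intervals conditional on the total, all 95% and for counting error only. A difference met the rule of size at 2 fold, with 1 UMI added to each group, and 20 UMIs over both groups. With 1 library per stage nothing was tested. Thinning drew 2000 UMIs per cell and dropped shallower cells.

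Scrublet's automatic threshold marked 21 of 8390 cells (0.250%) and 2 of 5517 (0.0363%) as doublets, too few to be used, so doublets stayed in, and an alternative removed the 563 and 243 top-scoring cells. Members named with values were those with most UMIs of each number, the 5 at either end of a ratio with at least 200 UMIs, and copies of a pair, and others were chosen after their values were seen. Members, gene lists and markers were chosen with earlier results of these data known. The lists were the TALE cofactors, *hox* upstream regulators, Polycomb and trithorax genes, motor column genes, genes beside the *hox* sets and tail bud markers. Alternatives were a 1.5-fold rule, a minimum of 50 UMIs, means over cells, totals without hemoglobin and mitochondrial genes, thinning to 1000 UMIs, 500 genes per cell, doublet removal, resolution 2, *hox* genes kept in the clustering and libraries clustered alone. Counting cluster 2 as motor neuron-like and leaving cluster 20 out were added after seeing the data.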

Additional observations from a re-analysis of the deposited data

Results flagged for a closer look

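The direction of 3 members over pMN progenitor-like cells differed between the stages, a difference that was not tested. The log2 ratio of *hoxc11b* in motor neuron-like cells was -1.05 at 28 hpf and 2.48 at 60 hpf, and in V3 interneuron-like cells it was -1.32 and 4.67. In V3 interneuron-like cells *hoxc12b* was at -1.66 and 2.53 and *hoxd12a* at -1.23 and 2.02. The 60 hpf values share 68 pMN progenitor-like cells, and the 28 hpf value of *hoxc12b* was 2.2 with each library clustered alone.

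Cells under 1000 genes, which no comparison used, also held *hox* RNA, at 25.6 UMIs per 10000 in 1734 cells of 28 hpf and 12.7 in 2388 cells of 60 hpf, above the 3 UMIs that a count of 0 allows. Per cell this was a mean of 3.6 and 3.8 *hox* UMIs. The deeper erythroid-like cells had means of 3.97 and 4.35 and a median of 1 at either stage. How much of the *hox* RNA in the cells under 1000 genes was free RNA was not tested.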

How the results depend on the processing

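No paired analysis was possible because each stage is 1 library. Under the alternatives only members were counted, so the member counts below have no share of all genes beside them. Whether they moved more than all genes did was not tested. At 1.5 fold the members higher and lower between stages were 19 and 11 in motor neuron-like and 11 and 27 in pMN progenitor-like cells, with 12 lower in V2b/KA and 22 higher in V3 interneuron-like cells. Over pMN progenitor-like cells at 28 hpf 8 were then higher in motor neuron-like, 8 higher and 13 lower in V2b/KA and 15 higher in V3 interneuron-like cells, and 12 were lower in motor neuron-like cells at 60 hpf. The share of numbers 9 to 13 in motor neuron-like cells at 60 hpf was 61.6% as a mean over cells, 49.1% at 500 genes, 58.3% without predicted doublets, 49.2% at resolution 2, 59.5% with *hox* genes in the clustering, 54.8% with libraries alone, 50.4% with cluster 2 and 55.6% without cluster 20. The summed OPC/OL-like level was 15.8 as a mean over cells, 17.6 without hemoglobin and mitochondrial genes, 17.5 at 500 genes, 14.7 without doublets, 13 at resolution 2, 13.2 with *hox* genes and 13.1 with libraries alone. Its log2 ratio over motor neuron-like cells was -1.85 as a mean over cells, -1.83 without doublets and -1.98 at resolution 2. The ratio was -1.99 with *hox* genes, -1.96 with libraries alone, -1.68 with cluster 2 and -1.58 under another of the alternatives. That of *hoxb7a* was 2.41 as a mean over cells, 1.72 at 500 genes, where 1 member was higher, and 1.84 with cluster 2. In motor neuron-like cells between stages all *hox* stood at 0.40 as a mean over cells, 0.31 at 500 genes, 0.35 without doublets, 0.36 with *hox* genes, 0.30 with cluster 2 and 0.21 without cluster 20. Number 13 stood at 1.34 at 500 genes, 3.2 without doublets, 0.80 at resolution 2, 3.44 with *hox* genes, 1.45 with libraries alone, 0.80 with cluster 2 and 0.69 without cluster 20. Members higher there were 13 without doublets and 14 with *hox* genes, and 3 were lower with cluster 2. Over pMN progenitor-like cells at 28 hpf, resolution 2 gave 1 higher in motor neuron-like, 0 in V2b/KA and 3 higher and 4 lower in V3 interneuron-like cells; V2b/KA interneuron-like cells had 5 higher with *hox* genes, and 4 higher and 8 lower as a mean over cells. Libraries clustered alone gave 16 higher and 4 lower, 20 and 3, and 20 and 1 in these 3 classes, reversed number 13 to 2.81, 2.19 and 2.56, and *hoxc12b* to 2.2 in V3 interneuron-like cells. Doublet removal reversed *hoxa13b* (-1.11) and *hoxc13a* (-0.29) between stages in pMN progenitor-like cells, with 2 higher and 8 lower, and number 13 in motor neuron-like over pMN progenitor-like cells at 60 hpf (1.1), and left 3 lower in V2b/KA and 2 in V3 interneuron-like cells. The share with number 10 among motor neuron-like cells with number 13 was 77.0% at 1000 UMIs, 86.1% at resolution 2 and 88.2% with cluster 2. The causes were not tested. The pMN progenitor-like class of 60 hpf gave no value at 500 genes, at resolution 2 or with libraries alone.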
